A study of Mus musculus with 8 samples.

Results

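The 35 genes described here carry glucose into cells, break it down to pyruvate and lactate, or belong to the response to low oxygen. They were taken by symbol from a list, with no threshold on a measured value in the rule. The list was chosen with earlier results of these data known, so the shares of members called are not independent of those results. All 35 were found among the 33641 symbols measured. All 35 passed the filter on low values that left 16064 genes for testing, although Eno1b passed through the Yap1 Taz null and triple null libraries alone. Messenger RNA was sequenced from blood stem cells sorted out of bone marrow of C57BL/6 mice, with 8 libraries in 4 genotypes of 2 each. The genotypes were wild type, Scribble-/-, Taz-/-;Yap1-/- (called Yap1 Taz null here) and Scribble-/-;Taz-/-;Yap1-/- (triple null). Mice of every genotype, wild type included, carried the Mx1-Cre transgene and were given polyI:C into the peritoneum on alternate days, 6 times at 10 mg/kg, with cells taken 1 week after induction. Mx1-Cre is a recombinase under an interferon-responsive promoter, so it is active in other interferon-responsive cells as well as in blood stem cells, and polyI:C imitates viral RNA and so evokes interferon. The sources used here give neither age nor sex. Values are TPM, an abundance per transcript length scaled to the same total in each library, which keeps no record of depth, so how many reads stand behind a value is unknown. Whether both libraries of a genotype are separate animals is not stated, so p-values reflect how much these libraries differ from each other, and that may be technical.

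Glycolysis splits glucose into pyruvate in a preparatory phase that spends ATP and a payoff phase that returns it, and lactate dehydrogenase turns pyruvate into lactate when it is not passed to the mitochondrion. When oxygen is low, the hydroxylases of the EGLN family no longer mark HIF-1α and HIF-2α for the VHL ubiquitin ligase, and each pairs with ARNT and binds hypoxia response elements near glycolytic and other target genes. Blood stem cells in the marrow are known for a low-oxygen niche, for active HIF-1α and for a reliance on glycolysis. Scribble is a scaffold of the polarity complex at the lateral cell membrane, while YAP1 and TAZ switch on genes with TEAD factors unless Hippo signalling holds them back.

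The core of the hypoxia response element is the letters ACGTG or GCGTG, and 4 promoters are shown as examples of members with and without it close to their start. Each is the 250 bases before the gene's start in RefSeq, from the assembly GRCm38.p6, 5′ to 3′ on the gene's strand, and capitals mark ACGTG or GCGTG on either strand. Hk2 (chr6:82774455-82774704, minus strand) and Ldha (chr7:46845554-46845803, plus strand) encode enzymes at the first and last step of the route to lactate. Eno1 (chr4:150236458-150236707, plus strand) and Vegfa (chr17:46032378-46032627, minus strand) are shown because Vegfa and Eno1b, a near copy of Eno1, were the 2 members called different between genotypes.
Hk2: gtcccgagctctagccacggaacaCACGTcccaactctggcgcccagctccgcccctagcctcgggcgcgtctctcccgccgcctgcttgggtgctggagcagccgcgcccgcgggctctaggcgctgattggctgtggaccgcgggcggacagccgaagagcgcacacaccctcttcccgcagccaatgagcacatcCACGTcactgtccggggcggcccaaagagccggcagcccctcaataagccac
Ldha: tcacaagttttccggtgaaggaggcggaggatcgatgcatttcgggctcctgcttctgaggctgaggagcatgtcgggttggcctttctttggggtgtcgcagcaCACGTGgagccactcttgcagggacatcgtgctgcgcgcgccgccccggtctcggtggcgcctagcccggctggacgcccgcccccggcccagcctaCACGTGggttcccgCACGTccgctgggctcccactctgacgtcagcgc
Eno1: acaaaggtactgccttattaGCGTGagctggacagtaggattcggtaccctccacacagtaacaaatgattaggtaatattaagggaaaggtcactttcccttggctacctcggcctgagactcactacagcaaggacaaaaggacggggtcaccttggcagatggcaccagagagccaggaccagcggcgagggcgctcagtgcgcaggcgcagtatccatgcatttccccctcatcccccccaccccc
Vegfa: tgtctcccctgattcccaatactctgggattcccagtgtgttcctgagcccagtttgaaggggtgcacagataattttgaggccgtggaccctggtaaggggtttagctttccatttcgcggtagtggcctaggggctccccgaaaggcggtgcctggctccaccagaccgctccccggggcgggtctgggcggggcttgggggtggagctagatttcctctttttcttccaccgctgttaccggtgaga
Hk2 held 2 matches to ACGTG and Ldha held 5, of which 2 pairs lay in the palindrome CACGTG, where both strands match. Eno1 held 1 GCGTG, and Vegfa held none in this window. A missing match says only that these letters are not in these 250 bases.

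RefSeq windows were found for 31 of the 35 genes. ACGTG was present on either strand in 16 of them (51.6%), against 16.6% of the 32851 windows of all genes. GCGTG was also present in 16 (51.6%), against 28.2% of all windows. At least 1 of the 2 forms was in 24 genes (77.4%), against 38.6% of all windows. The palindrome CACGTG, which is also the E-box bound by MYC and MAX, was in 4 genes (12.9%), against 6.02% of all windows. With matches inside the palindrome left out, ACGTG was in 14 genes (45.2%), against 11.4%. Each member was counted once, by its most upstream start where several were listed. Among all genes every window was counted, so the percentages set genes against windows. The windows of all genes include every annotated gene type, and the base composition of the promoters was not matched.

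The libraries carried the markers of blood stem cells. All 8 stem cell markers on a fixed list passed the filter, with Kit between 268 and 532 TPM and Mecom between 159 and 243 TPM. Cd48, which the sort excludes, was between 1.21 and 3.30 TPM. The list of 5 progenitor markers chosen as low in the sort summed to 56.0 to 103 TPM over the 8 libraries, so not all of them were near the floor. Some marker lists moved with genotype. The 8 markers of monocytes, macrophages and dendritic cells summed to 2311 and 2557 TPM in wild type and 468 to 909 TPM in the other libraries, carried by H2-Aa and Cd74, while Csf1r stayed under 1 TPM. The list did not fall as a whole. Of the 5 tested, limma called H2-Aa and Cd74 lower in each null genotype against wild type, but Clec9a higher in Yap1 Taz null. In those comparisons 1.3, 0.99 and 0.579% of all genes tested were called. The list median in triple null against wild type was 0.01. The 6 megakaryocyte markers summed to 1137 and 1272 TPM in wild type and 402 to 588 TPM elsewhere, carried by Pf4. The 7 granulocyte and myeloid progenitor markers summed to 171 and 198 TPM in wild type, 383 and 545 TPM in Scribble null, and 241 to 311 TPM elsewhere. Of the 4 tested, limma called Prtn3 and Csf3r higher in Scribble null against wild type, where 1.3% of all genes tested were called. The median log2 change of these 4 was 1.03, against 0.14 for all genes, while Mpo was at most 2.56 TPM and S100a8 under 1 TPM. The 5 markers of T and NK cells summed to 8.76 and 8.93 TPM in wild type, 42.9 and 26.6 TPM in Scribble null, and 12.3 to 15.7 TPM elsewhere. Klrb1c carried most of the Scribble null sums at 30.9 and 15.0 TPM, with Cd3d at 11.2 and 11.1 TPM there. Cd3d was 7.72 and 5.05 TPM in wild type and 7.93 to 11.7 TPM in Yap1 Taz null and triple null libraries. Cd3e and Cd3g were under 1 TPM and Ncr1 was listed at 0 in every library. The 4 endothelial markers summed to 54.3 and 54.6 TPM in wild type and 59.9 to 86.3 TPM elsewhere, carried by Pecam1 and Emcn, with Cdh5 under 1 TPM in every library. The 14 genes of dissociation and the immediate early response summed to 4797 and 4603 TPM in wild type, 6351 and 6974 TPM in Scribble null, 5678 and 6141 TPM in Yap1 Taz null, and 4921 and 5093 TPM in triple null libraries. Their part in the results below was not tested, and in bulk RNA fewer cells of a type and less RNA per cell cannot be told apart. A set of 3 Y-linked genes summed to 116 to 149 TPM in 6 libraries, whereas the 2 labelled Yap1 Taz null had sums of 11.9 and 14.0 TPM, and the part of this in the Yap1 Taz null comparisons was not tested. Scrib was 8.19 and 9.29 TPM in wild type, 6.25 and 7.63 TPM in Scribble null, and 14.5 and 7.54 TPM in triple null libraries. Yap1 and Wwtr1, the gene of Taz, were at or under 2.15 TPM in wild type and did not lie below wild type in the libraries that name them. Wwtr1 was 5.32 and 3.91 TPM in Scribble null libraries, against 0.775 to 1.92 TPM in the Yap1 Taz null and triple null ones. The highest Yap1 value of the 8, 6.63 TPM, was in the second Yap1 Taz null library, and the highest Scrib value in the first triple null library, so whole-gene levels do not check these labels.

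The 35 genes spanned more than 3 orders of magnitude in level and together made up 0.433 to 0.549% of each library's TPM. Gapdh, glyceraldehyde-3-phosphate dehydrogenase, was the most abundant at 2459 ± 137 TPM in wild type (mean ± SD, n = 2 here and below), followed by Ldha at 495 ± 36.0 TPM and Pkm, pyruvate kinase, at 238 ± 1.35 TPM. Aldoa, aldolase, and Gpi1, glucose-6-phosphate isomerase, came next at 219.7 ± 11.7 and 213 ± 20.2 TPM, and Hk2, hexokinase 2, at 205 ± 24.5 TPM. The wild-type libraries of Aldoa, Gpi1 and Hk2 overlapped one another, so the order among these is within the spread. At the low end were Epas1, the gene of HIF-2α, at 1.69 ± 0.155 TPM, Adm, the vasodilator peptide adrenomedullin, at 2.10 ± 0.399 TPM, and Eno1b at 0.634 ± 0.0453 TPM. Across the 140 pairs of replicates the median ratio of the higher to the lower library was 1.155, and 10 pairs differed by more than 2-fold. For the 11 genes with a mean of 100 TPM or more, that ratio was at most 1.456.

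**Figure D1:**
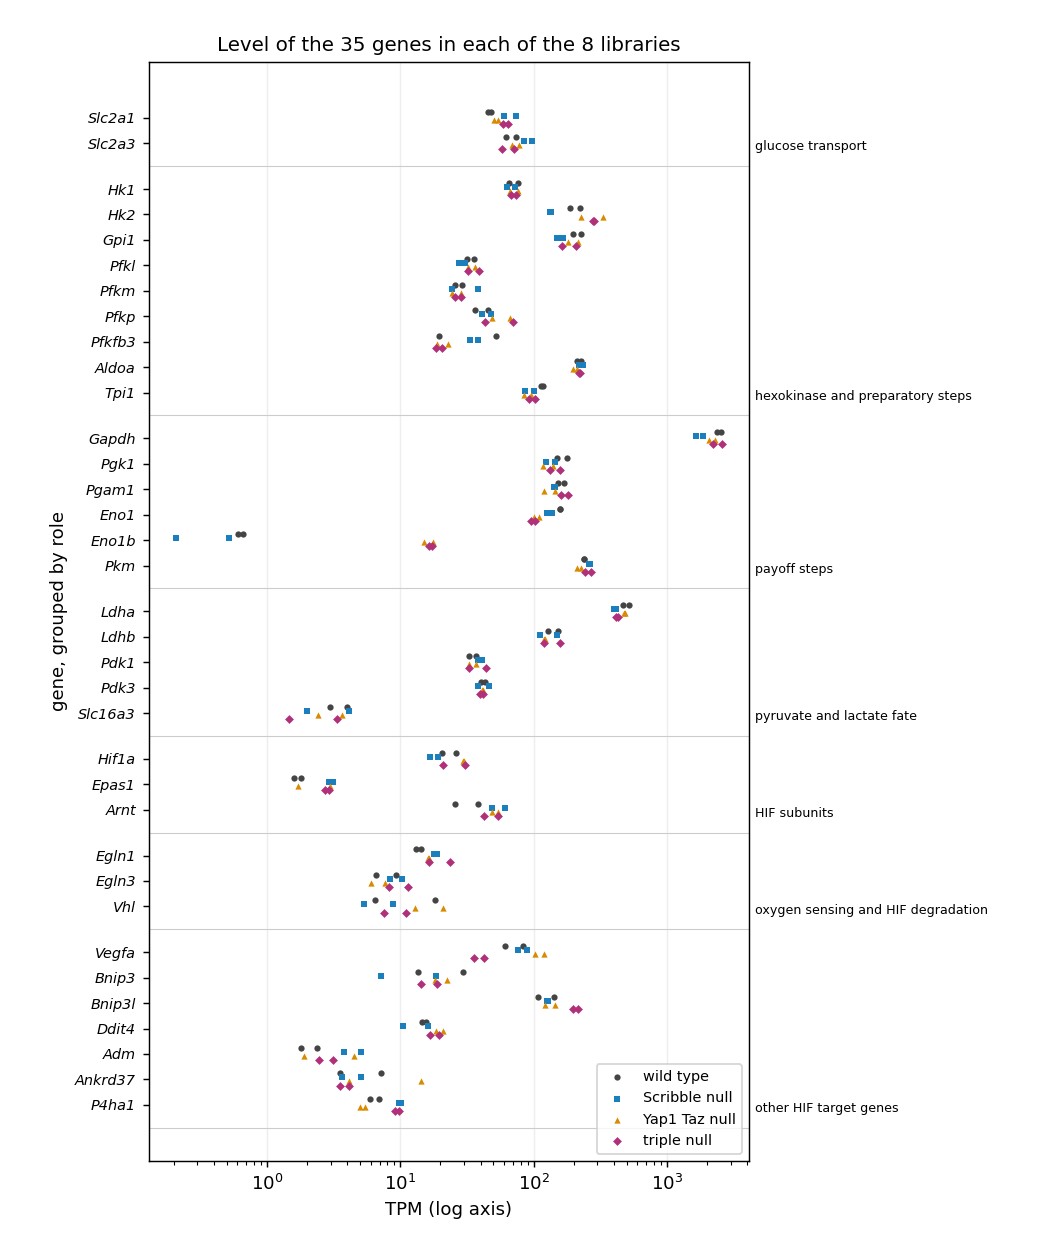
Level of each of the 35 genes in TPM on a log axis, with 1 point per library, genes grouped by role and symbols and colours marking the 4 genotypes. Most genes keep their place in the order from Gapdh, near 2459 TPM in wild type, down to Epas1, near 1.69 TPM, and Eno1b alone separates 4 libraries from the other 4 by more than 10-fold.

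Uptake of glucose rests on the carriers GLUT1 and GLUT3. Slc2a3, the gene of GLUT3, was 61.7 and 73.7 TPM in wild type, 97.1 and 85.3 TPM in Scribble null, 78.2 and 68.7 TPM in Yap1 Taz null, and 71.5 and 58.3 TPM in triple null libraries. Slc2a1, the gene of GLUT1, was 48.0 and 45.8, 74.0 and 59.7, 54.1 and 50.3, and 58.7 and 64.7 TPM in the same order. For each carrier the Scribble null libraries lay above the wild-type ones without overlap, and neither difference was called. With 2 libraries per group such separation is common, and its share over all genes was not computed. Here and below, a lack of overlap alone is therefore no result about a gene.

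In the preparatory steps, Hk2, which traps glucose in the cell as its phosphate, varied most among the abundant enzymes. Its level was 222 and 188 TPM in wild type, 135 and 133 TPM in Scribble null, 329 and 226 TPM in Yap1 Taz null, and 277 and 282 TPM in triple null libraries. Scribble null lay below every other library and the Yap1 Taz null and triple null groups lay above wild type, with no overlap. Hk1, the constitutive hexokinase, ranged only from 63.0 to 76.6 TPM over the 8 libraries, and Aldoa from 199 to 237 TPM. Gpi1 was 199 and 227 TPM in wild type, 150.3 and 167 TPM in Scribble null, 179.8 and 215 TPM in Yap1 Taz null and 162 and 207 TPM in triple null libraries. The 3 subunit genes of phosphofructokinase, which commits sugar to glycolysis, spanned 24.3 to 70.4 TPM. Pfkl was lowest in both Scribble null libraries, Pfkp was higher in both Yap1 Taz null libraries than in wild type or Scribble null, and Pfkm overlapped between all genotypes. Pfkfb3, which makes the activator of that enzyme, was 52.4 and 19.4 TPM in the wild-type libraries alone, so that its wild-type level is not well defined. Tpi1, triose-phosphate isomerase, was 113 and 118 TPM in wild type and 84.3 to 103 TPM in all other libraries.

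In the payoff steps, Gapdh was 2556 and 2362 TPM in wild type, 1665 and 1870.3 TPM in Scribble null, 2078 and 2288 TPM in Yap1 Taz null, and 2227 and 2565 TPM in triple null libraries. The Scribble null values were the lowest of all. Pkm ranged from 212 to 268 TPM, Pgk1, phosphoglycerate kinase, from 117 to 178 TPM, and Pgam1, phosphoglycerate mutase, from 119 to 181 TPM. Ldha was 469.7 and 521 TPM in wild type, 412 and 400.2 TPM in Scribble null, 474 and 483 TPM in Yap1 Taz null, and 412 and 428 TPM in triple null libraries. Both groups without Scribble were thus below both groups with it. Pdk1 and Pdk3, kinases that shut pyruvate dehydrogenase, ranged from 33.0 to 43.8 TPM and from 38.2 to 46.4 TPM, and Slc16a3, the lactate exporter MCT4, was low at 1.48 to 4.14 TPM.

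Among the HIF subunits, Arnt was 25.6 and 38.1 TPM in wild type, 61.5 and 48.5 TPM in Scribble null, 48.9 and 53.9 TPM in Yap1 Taz null, and 42.6 and 54.5 TPM in triple null libraries, so that every null library was above both wild-type ones. Hif1a ranged from 16.6 to 30.8 TPM, lowest in both Scribble null libraries, and Epas1 from 1.58 to 3.12 TPM. Of the oxygen sensors, Egln1, the gene of the main HIF prolyl hydroxylase, was 14.2 and 13.1 TPM in wild type, 18.8 and 18.0 TPM in Scribble null, 16.5 and 16.1 TPM in Yap1 Taz null, and 16.4 and 23.7 TPM in triple null libraries. Egln3, itself induced by HIF, ranged from 6.05 to 11.4 TPM. Vhl was 6.49 and 18.2 TPM in wild type, 5.39 and 8.81 TPM in Scribble null, 20.7 and 12.8 TPM in Yap1 Taz null and 7.49 and 11.1 TPM in triple null libraries. The gap between its wild-type libraries was larger than any difference between group means.

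Of the other HIF targets, Vegfa, the gene of the vessel growth factor VEGF-A, was 60.5 and 82.8 TPM in wild type, 76.7 and 89.2 TPM in Scribble null, 102 and 120.3 TPM in Yap1 Taz null, and 42.2 and 35.5 TPM in triple null libraries. The Yap1 Taz null libraries were the highest and the triple null libraries the lowest of the 8. Bnip3l, a mitophagy receptor, was 107 and 141 TPM in wild type, 127 in each Scribble null library, 144 and 122 TPM in Yap1 Taz null, and 198 and 216 TPM in triple null libraries, where alone it stood apart. P4ha1, a collagen prolyl hydroxylase subunit, was 9.81 to 10.1 TPM in Scribble null and 9.09 to 9.80 TPM in triple null libraries, against 5.97 to 6.98 TPM in wild type and 4.96 to 5.46 TPM in Yap1 Taz null libraries. Adm was 1.82 and 2.38 TPM in wild type, 5.11 and 3.77 TPM in Scribble null, 1.89 and 4.48 TPM in Yap1 Taz null and 3.11 and 2.47 TPM in triple null libraries. Ankrd37, an ankyrin-repeat gene, was 3.51 and 7.14, 3.63 and 5.05, 4.13 and 14.2, and 3.50 and 4.12 TPM in the same order, so that a single Yap1 Taz null library carries its highest value. Ddit4, an inhibitor of mTORC1, ranged from 10.5 to 20.8 TPM and was higher in the 4 Yap1 Taz null and triple null libraries than in the other 4. Bnip3, a relative of Bnip3l, ranged from 7.15 to 29.7 TPM, and each null group overlapped wild type.

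**Figure D2:**
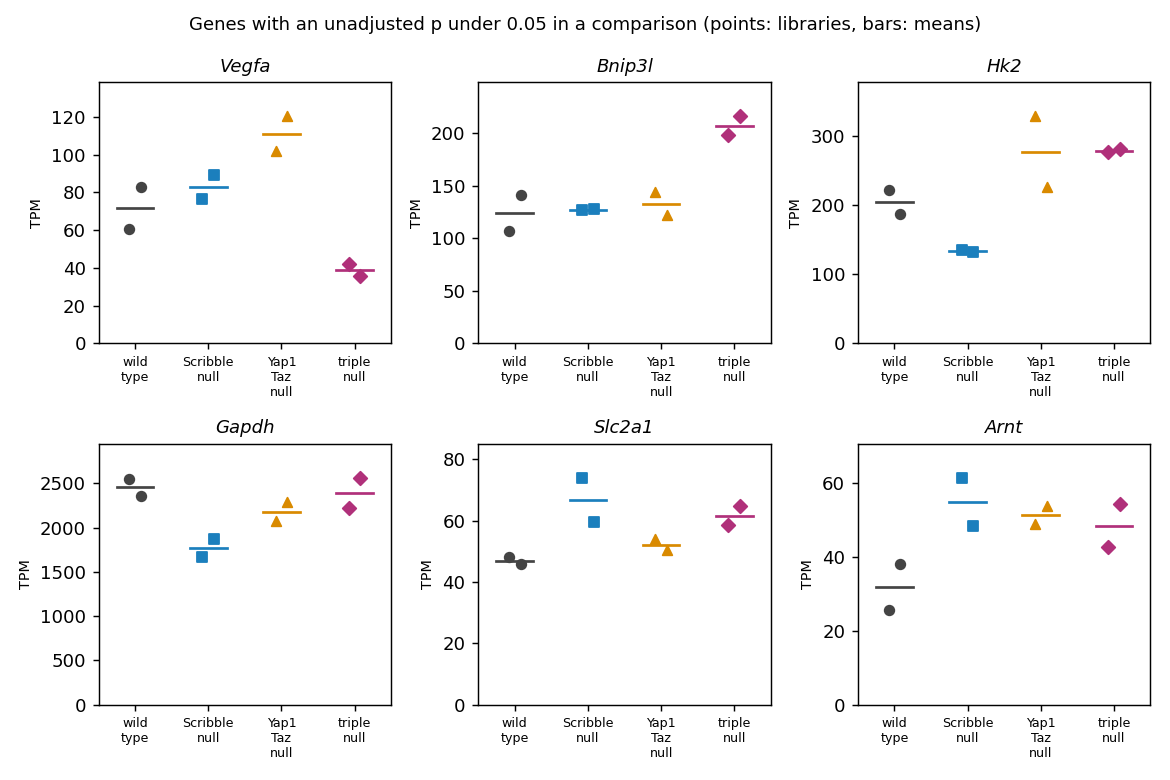
TPM of 6 genes with an unadjusted p under 0.05 in at least 1 comparison, with points for libraries and bars for the mean of each genotype, on linear axes from 0. Vegfa lies between 35.5 and 42.2 TPM in triple null libraries, below all others, and Bnip3l between 198 and 216 TPM there, above all others.

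The comparison of Scribble null with wild type asked what loss of Scribble changes in these genes. None of the 35 was called by limma at an adjusted p under 0.05, where 1.3% of all genes tested were called. At an unadjusted p under 0.05 there were 7 of 35 (20%), against 18.2% of all genes. Those were Slc2a1, Slc2a3 and Arnt with higher values and Hk2, Gpi1, Gapdh and Ldha with lower ones. The largest difference was that of Adm, with a log2 change of 0.81 (95% interval −0.09 to 1.70). Arnt followed at 0.78 (0.24 to 1.33), Bnip3 at −0.74 (−1.83 to 0.34) and Hk2 at −0.61 (−1.02 to −0.19). Arnt and Hk2 each had a limma adjusted p of 0.147, and Bnip3 one of 0.443. Gapdh had a log2 change of −0.48 with an SE of 0.118 and an adjusted p of 0.103.

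The median log2 change of the 35 genes in Scribble null was −0.06, against 0.14 for all genes tested, and 12 of the 35 lay above that median of all genes. By role, the median was 0.46 for the 2 glucose carriers, −0.06 for the 9 genes of the preparatory steps, −0.26 for the 6 of the payoff steps, −0.11 for the 5 of pyruvate and lactate fate, 0.57 for the 3 HIF subunits, 0.22 for the 3 genes of oxygen sensing and HIF degradation, and 0.05 for the 7 other HIF target genes. The summed TPM of the payoff genes was 3271 and 3087 in wild type and 2354 and 2525 in Scribble null libraries. Most of each sum was Gapdh, with means of 2459 TPM in wild type and 1767 TPM in Scribble null. Pkm, the only payoff gene with a higher mean in Scribble null, was at 238 and 262 TPM. In the same comparison limma called 5 of 27 cell division genes lower and none higher, where 1.3% of all genes tested were called. The list median was −0.70, against 0.14 for all genes. Gapdh, Ldha, Hk2 and Gpi1 lay in the same direction as these, whereas Slc2a1, Slc2a3 and Arnt lay in the other. The part of that difference in the enzyme levels was not tested. Dividing each library by its median ratio, a scaling that centres all genes near 0, gave Gapdh a log2 change of −0.65 with a limma adjusted p of 0.0444, which made it the 1 member called, and changed the split of the 35 from 17 higher and 18 lower to 10 and 25.

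The comparison of Yap1 Taz null with wild type asked what loss of the 2 co-activators changes. Eno1b rose, as given with its near copies below, and it was the only gene of the 35 called (2.86%), where 0.99% of all genes tested were called. The count at an unadjusted p under 0.05 was 5 of 35 (14.3%), against 14.3% of all genes, namely Eno1b, Vegfa and Arnt with higher values and Eno1 and Tpi1 with lower ones. Arnt had a log2 change of 0.70 (95% interval 0.16 to 1.24) and a limma adjusted p of 0.247. Vegfa had a log2 change of 0.64 (0.18 to 1.09) and an adjusted p of 0.213. Hk2 was at 0.42 (−0.00 to 0.83), and Hif1a at 0.36 (−0.19 to 0.91), although both its Yap1 Taz null libraries lay above both wild-type ones. The median of the 35 was 0.01, against 0.14 for all genes, and 13 of them lay above that of all genes. Median-ratio scaling changed the split from 18 higher and 17 lower to 12 and 23.

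The triple null was compared with wild type to see the joint loss of all 3 genes. Eno1b was again the only gene of the 35 called (2.86%), where 0.579% of all genes tested were called. Without adjustment, a p under 0.05 was reached by 7 of 35 (20%), against 10.9% of all genes, with Eno1b, Bnip3l, Arnt, Hk2 and Slc2a1 at higher values and Eno1 and Vegfa at lower ones. Vegfa had a log2 change of −0.85 (95% interval −1.31 to −0.40) and a limma adjusted p of 0.159. Bnip3l, at 0.74 (0.37 to 1.12), had an adjusted p of 0.138. Vegfa and Bnip3l, both known to be induced by HIF, lay on opposite sides of wild type in these libraries, and neither was called. The part of HIF in these levels was not tested. The median of the 35 was 0.02, against 0.12 for all genes, and 14 lay above that of all genes. Median-ratio scaling changed the split from 19 higher and 16 lower to 12 and 23. These comparisons with wild type share its 2 libraries.

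**Figure D3:**
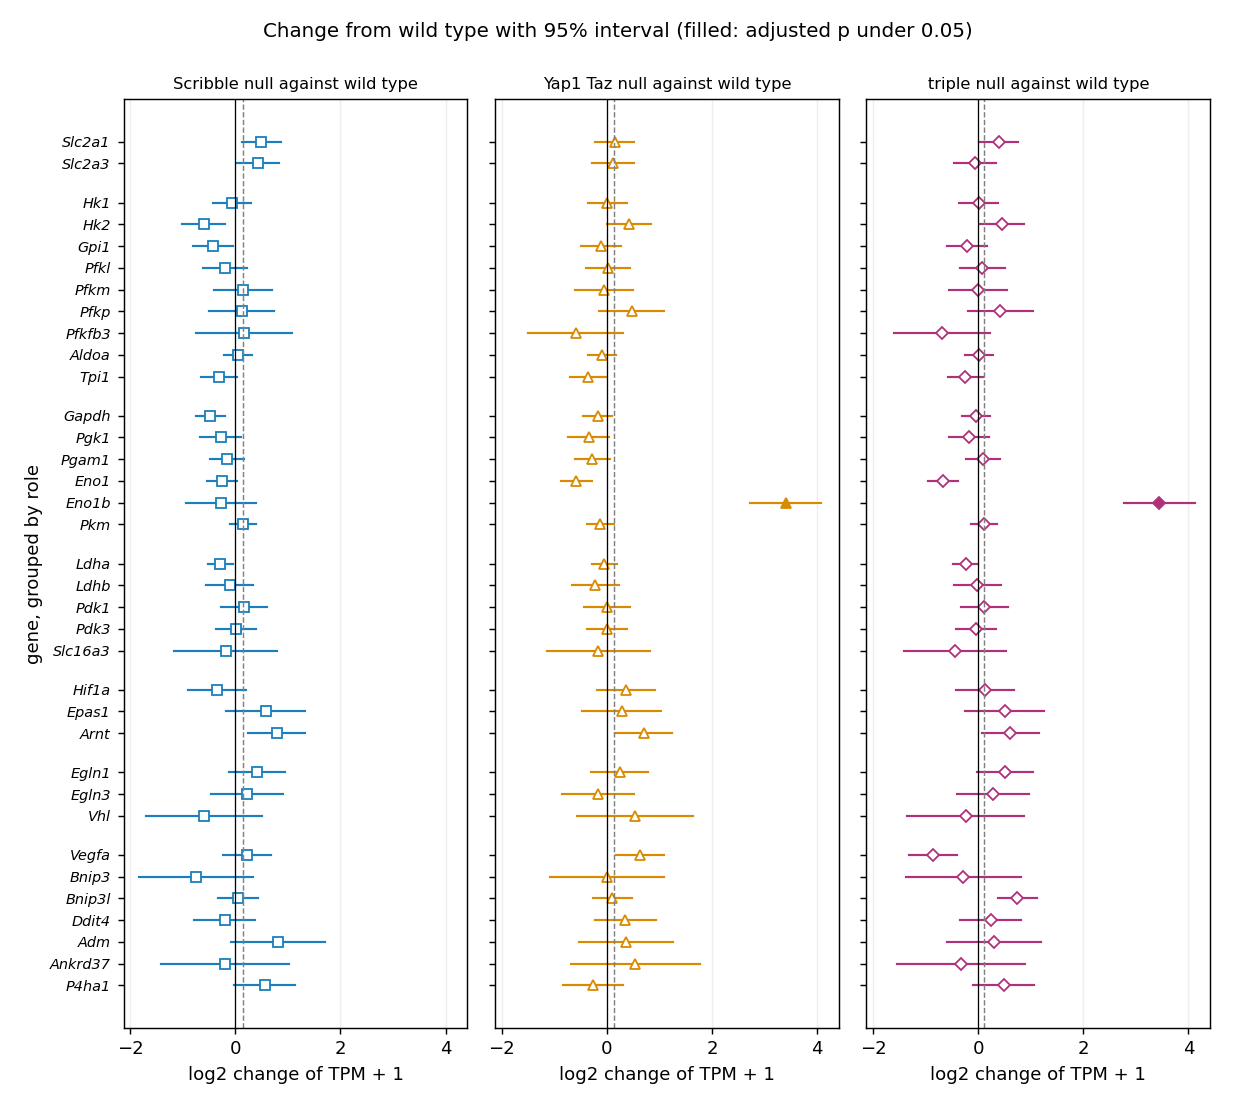
Log2 change of TPM + 1 from wild type for each of the 35 genes in the 3 null genotypes, with 95% intervals from limma. Filled symbols passed an adjusted p under 0.05, the solid line is at 0 and the dashed line is the median of all genes tested, and Eno1b, at 3.40 and 3.45, is the only filled symbol.

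Loss of Scribble was also read on the Yap1 Taz null background, as labelled, by setting the triple null against the Yap1 Taz null. Vegfa fell, from 111 ± 13.0 to 38.8 ± 4.70 TPM, with a log2 change of −1.49, an SE of 0.197 and a limma adjusted p of 0.0459. It was the only gene of the 35 called (2.86%), where 0.181% of all genes tested were called. The unadjusted p was under 0.05 for 4 of 35 (11.4%), against 8.41% of all genes, with Bnip3l, P4ha1 and Pgam1 at higher values. Bnip3l had a log2 change of 0.64 (95% interval 0.26 to 1.02), with a limma adjusted p of 0.295, and P4ha1 one of 0.75 (0.17 to 1.33), with 0.466. Ankrd37 and Vhl had larger estimates, at −0.88 (−2.10 to 0.34) and −0.77 (−1.88 to 0.33), with wide intervals. This comparison sets triple null libraries, with Y-linked sums of 133 and 149 TPM, against Yap1 Taz null ones with 11.9 and 14.0 TPM, and the part of that was not tested. The Vegfa call was near the threshold. Its adjusted p ran from 0.0637 to 0.318 when any 1 of the 8 libraries was left out of the fit, and the log2 change ran from −1.61 to −1.37.

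Loss of Yap1 and Taz was likewise read on the Scribble null background, as labelled, by setting the triple null against the Scribble null. Eno1b rose with a log2 change of 3.72 and was the only gene of the 35 called (2.86%), where 0.212% of all genes tested were called. At an unadjusted p under 0.05 there were 7 of 35 (20%), against 9.15% of all genes, with Hk2, Bnip3l and Gapdh also at higher values and Vegfa, Eno1 and Slc2a3 at lower ones. Hk2 went from 134 ± 1.48 to 279 ± 3.47 TPM, a log2 change of 1.06 (95% interval 0.64 to 1.47) with a limma adjusted p of 0.0969. Without the second Yap1 Taz null library, which is not in either group but enters the shared estimate of the spread, its adjusted p was 0.0487. Over the 8 fits that each left out a library it ran from 0.0487 to 0.514, and that was the only one under 0.05. Vegfa had a log2 change of −1.08 (−1.53 to −0.62), with a limma adjusted p of 0.128. Gapdh was at 0.44 (0.17 to 0.71), with 0.310, and its triple null values overlapped those of wild type.

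Whether the effect of Scribble loss depended on Yap1 and Taz was tested as a departure from additivity, the triple null change less the Scribble null and the Yap1 Taz null changes. Vegfa departed, with a value of −1.71 on the log2 scale, an SE of 0.279 and a limma adjusted p of 0.0457. Scribble loss went with a Vegfa log2 change of 0.22 against wild type and −1.49 against the Yap1 Taz null. It was the only gene of the 35 called (2.86%), where 0.635% of all genes tested were called. The count at an unadjusted p under 0.05 was 7 of 35 (20%), against 14.5% of all genes, with Gapdh, Pgam1, Hk2 and Bnip3l above additivity and Arnt and Slc2a3 below it. Gapdh departed by 0.61 (95% interval 0.22 to 0.99), with a limma adjusted p of 0.171, and Arnt by −0.88 (−1.64 to −0.11), with 0.289. The departure uses the Yap1 Taz null libraries with low Y-linked sums, and the part of these in the Vegfa value was not tested. With any 1 library left out, the departure of Vegfa ran from −1.94 to −1.49 and its adjusted p from 0.0610 to 0.201. Median-ratio scaling gave it an adjusted p of 0.0548 and changed the split of the 35 from 20 above and 15 below to 27 and 8.

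Over the 4 genotypes at once, the moderated F-test in limma called Eno1b and Vegfa, 2 of 35 (5.71%), where 1.0% of all genes tested were called. Without adjustment, a p under 0.05 was reached by 8 of 35 (22.9%), against 15.5% of all genes. The others in that count were Hk2, Eno1, Bnip3l, Gapdh, P4ha1 and Arnt. Vegfa was called by this test in none of the 8 fits that each left out a library, whereas Eno1b was called in all of them, joined by Hk2 without the second Yap1 Taz null library.

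Eno1 encodes α-enolase, the enzyme before pyruvate kinase, and Eno1b is a near copy of it on another chromosome. Eno1b (mm10 chromosome 18, 48045335 to 48048412, annotated as protein-coding) was 0.602 and 0.666 TPM in wild type, 0.522 and 0.208 TPM in Scribble null, 15.2 and 17.5 TPM in Yap1 Taz null, and 16.5 and 17.2 TPM in triple null libraries. The 4 Yap1 Taz null and triple null libraries were thus all at 15.2 TPM or more and the other 4 at 0.666 TPM or less. Eno1b passed the filter of 1 TPM only through the libraries where it was high, so its tests are not independent of that filter. The log2 change of Eno1b was 3.40 in Yap1 Taz null against wild type, 3.45 in triple null against wild type and 3.72 in triple null against Scribble null, with limma adjusted p-values of 0.00134, 0.00139 and 0.00192. The last 2 of these do not use the Yap1 Taz null libraries in the groups compared. Eno1 (mm10 chromosome 4, 150236721 to 150248879) was 158 TPM in each wild-type library, 138 and 126 TPM in Scribble null, 101 and 109.7 TPM in Yap1 Taz null, and 102 and 96.4 TPM in triple null libraries. Its log2 change was −0.58 (95% interval −0.87 to −0.29) in Yap1 Taz null and −0.67 (−0.96 to −0.38) in triple null libraries, with limma adjusted p-values of 0.101 and 0.0836. With median-ratio scaling both were called, at −0.75 and −0.81 with limma adjusted p-values of 0.0439 and 0.0398.

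The longest transcripts of Eno1 and Eno1b aligned over 1652 bases at 99.45% identity, with 9 mismatches. Gm4735, a processed pseudogene, matched Eno1b at 99.77% over 1302 bases, and it too was higher in the same 4 libraries, at 1.54 to 4.86 TPM against at most 0.445 TPM in the others. The sources used here do not say how reads that match several of these copies were assigned. Eno1b made up 0.164 to 0.419% of the summed TPM of Eno1, Eno1b, Gm4735 and Gm5855 in wild type and Scribble null libraries, and 12.6 to 14.5% in the 4 Yap1 Taz null and triple null libraries. The same shares in the deposited table of the whole series were 0.185 to 0.432% and 12.2 to 13.7%. Summed over the 4 transcripts, the log2 change was −0.34 (95% interval −0.62 to −0.06) in Yap1 Taz null against wild type, −0.41 (−0.69 to −0.13) in triple null against wild type and −0.15 (−0.44 to 0.13) in triple null against Scribble null. Limma adjusted p-values of these sums were 0.270, 0.278 and 0.756. So Eno1b rose as listed by its own symbol, and the sum over the copies was not called in any of these comparisons. Whether reads moved between the copies was not tested.

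**Figure D4:**
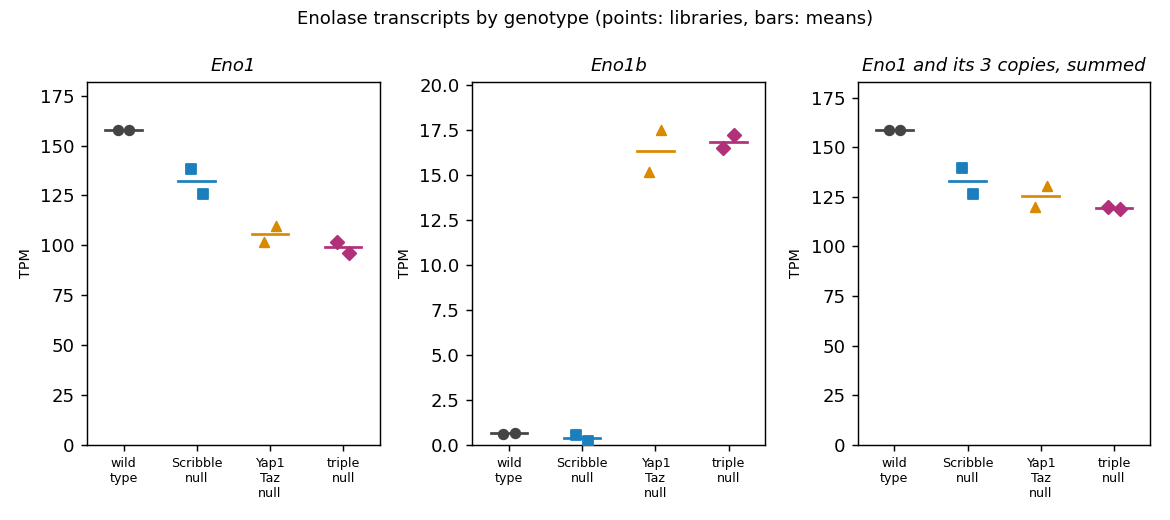
TPM of Eno1, of Eno1b and of the sum of Eno1 with its 3 near-identical copies, with points for libraries and bars for the mean of each genotype, on linear axes from 0. Eno1b is at 15.2 TPM or more in the 4 Yap1 Taz null and triple null libraries and at 0.666 TPM or less in the other 4, while the sum lies between 119 and 131 TPM in those 4 libraries and between 127 and 159 TPM in the rest.

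Shares within a family of isoenzymes do not depend on the scaling between libraries. Hk2 made up 73.9 and 63.1% of the summed TPM of Hk1, Hk2 and Hk3 in wild type, 60.1 and 54.8% in Scribble null, 77.1 and 71.9% in Yap1 Taz null, and 70.9 and 74.2% in triple null libraries. The Scribble null shares were the lowest of the 8. Ldha made up 73.0 to 80.3% of the summed TPM of Ldha and Ldhb, with 79.6 and 80.3% in Yap1 Taz null libraries, above the Scribble null and triple null libraries and overlapping wild type. Slc2a1 made up 38.4 to 43.8% of the 2 glucose carriers in the first 3 genotypes and 45.1 and 52.6% in triple null libraries. Pfkp made up 37.2 to 54.0% of the phosphofructokinase subunits and Aldoa 90.3 to 93.0% of Aldoa and Aldoc. Hif1a made up 94.3 and 91.9% of Hif1a and Epas1 in wild type, 84.2 and 86.9% in Scribble null, 94.6 and 91.1% in Yap1 Taz null, and 87.8 and 91.9% in triple null libraries. Shares were compared as values, with no test.

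**Figure D5:**
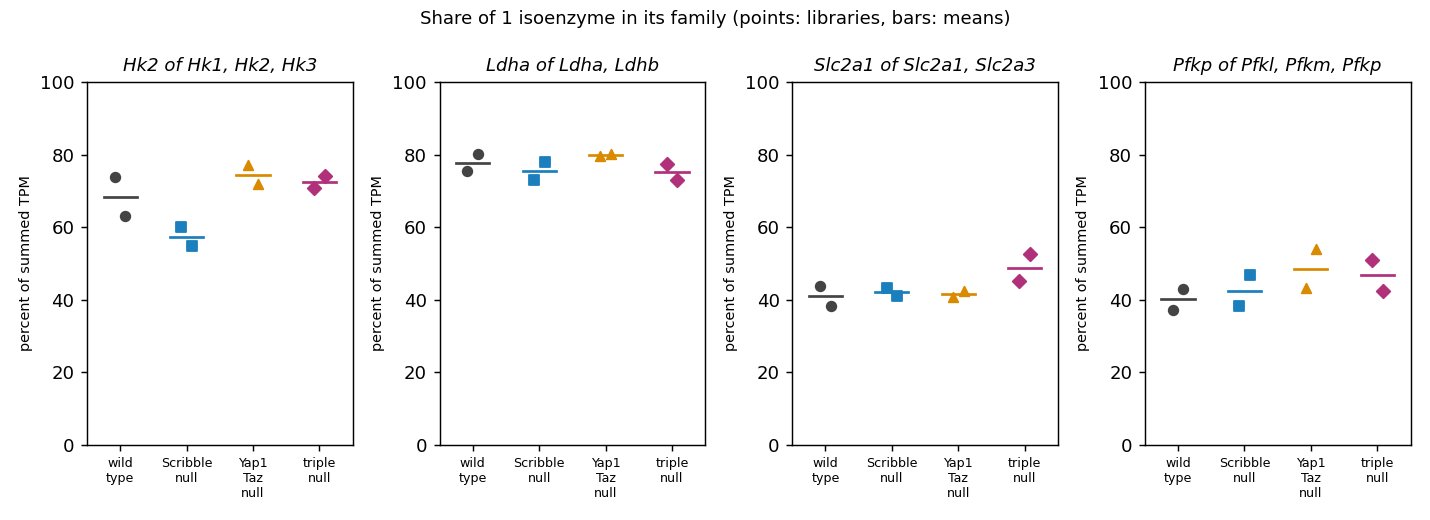
Share of 1 isoenzyme in the summed TPM of its family, in percent from 0 to 100, with points for libraries and bars for the mean of each genotype. Hk2 lies at 54.8 and 60.1% of the hexokinases in Scribble null libraries, below the other 6, while the Ldha share runs from 73.0 to 80.3% and overlaps wild type in every null genotype.

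Other genes of the same pathways were read from fixed lists. Of 19 further glycolytic isoenzymes and carriers tested, 13 genes of pyruvate dehydrogenase and its supply, 10 of the pentose phosphate pathway, 14 further regulators of HIF and 19 upstream regulators of stem cell glycolysis, limma called none in either direction in any comparison between 2 genotypes. At an unadjusted p under 0.05, of these 75 genes 10 passed in Scribble null, 9 in Yap1 Taz null and 5 in triple null libraries against wild type. Those were 13.3, 12 and 6.67%, each below the 18.2, 14.3 and 10.9% of all genes. Medians of these lists against wild type lay between −0.11 and 0.22, where all genes had 0.14, 0.14 and 0.12. Of 38 further hypoxia-induced genes, 1 was called, in triple null against Scribble null (0.212% of all genes tested) and in the departure from additivity (0.635% of all). Bhlhe40, a HIF-induced transcriptional repressor, fell in triple null against Scribble null libraries, with a log2 change of −1.43 and a limma adjusted p of 0.0127. Its level was 79.0 and 102 TPM in wild type, 172 and 152 TPM in Scribble null, 117 and 109.5 TPM in Yap1 Taz null, and 59.4 TPM in each of the triple null libraries. Like Vegfa, it was lowest in the triple null and departed from additivity, by −1.76 with a limma adjusted p of 0.0151. Of the 14 genes of dissociation and the immediate early response, 4 were also called below additivity, namely Egr1, Hspa1a, Nr4a1 and Zfp36, with a list median of −0.59 against −0.15 for all genes. The part of that list in the values of Vegfa and Bhlhe40 was not tested. Leaving out the first Scribble null library or either triple null library ended the first call, with adjusted p-values of 0.128, 0.124 and 0.144. Leaving out any library but the second wild-type or the second Scribble null one ended the other, at 0.0597 to 0.0934.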

How the data were processed

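Messenger RNA of stem cells sorted by SLAM surface markers, as the column names say, was measured in 8 libraries, grouped by the genotype in the labels. Per the labels' protocols, RNA was amplified with the Ovation RNA-Seq System v2 and tagged with Nextera XT, which marks no strand. The submitters' processing notes name TopHat and the build mm10, while the quantifier, its annotation and its handling of reads that match several copies are not stated (not given in the sources used here). Per the file headers, the authors deposited TPM values by gene symbol, 33641 to a library, with a sum of 1000000 in each. They also deposited one joint table of linear signal per gene, of a unit the header leaves unnamed, and it served only as an alternative. Each column's name gave its sample. Between 14024 and 14970 genes reached 1 TPM in a library, and mitochondrial genes took 2.56 to 3.78% of TPM. No depth is known, so no counting error can be given.

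Tests ran in limma 3.58.1 (R 4.3.3) on log2(TPM + 1), with a mean-variance trend, over the 16064 genes that reached 1 TPM in 2 or more libraries. The fit gave each genotype its mean across all 8 libraries, with 4 residual and 4.002 prior degrees of freedom. Benjamini-Hochberg adjustment ran over all genes of a comparison, and an adjusted p under 0.05 was a call. A fold change on this scale understates that of genes with low values. The script was tested on simulated data. Alternatives were a pseudocount of 0.1, no filter, a mean of at least 5 TPM, median-ratio scaling, the table of the whole series, only the groups compared, a replicate block, each library left out, and near-identical copies summed. Copies were genes whose longest GENCODE transcripts matched in BLAST 2.17.0 at an identity of at least 95%, covering at least 80% of the shorter one. Coordinates are from the GENCODE annotation of mm10, and promoters from RefSeq.

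The members and the lists were chosen with earlier results of these data known. Any member could be named. Values in every library were given for members called in any comparison, for Eno1 and Eno1b, for the most abundant of each role, and for the 3 largest changes without overlap in each comparison. Of the other lists, genes called in a comparison could be named. Promoter sequences of Eno1b, Epas1, Slc2a3 and Bnip3l were not used here.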

Additional observations from a re-analysis of the deposited data

Results flagged for a closer look

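The effect of Scribble loss on Vegfa differed between the wild-type and the Yap1 Taz null background, as labelled, by a test of the difference itself. Scribble loss went with a log2 change of 0.22 against wild type and of −1.49 against the Yap1 Taz null, a departure of −1.71 with a limma adjusted p of 0.0457. Both triple null libraries were below every other library and both Yap1 Taz null libraries above. The departure uses the Yap1 Taz null libraries, whose Y-linked sums were 11.9 and 14.0 TPM against 116 to 149 TPM elsewhere. The part of that difference in the Vegfa result was not tested. The call was lost with any 1 library left out, and it was chosen for a closer look from 35 genes.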

How the results depend on the processing

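Eno1b was called in Yap1 Taz null and in triple null against wild type under each alternative run on its own symbol, with log2 changes of 3.29 to 4.48 and 3.23 to 4.53. The sum of Eno1b with its near-identical copies was at −0.34 and −0.41 in these 2 comparisons and at −0.15 in triple null against Scribble null. Eno1 made up 81.2 to 99.5% of that sum in each library, so the sum mostly follows Eno1 and cannot show how Eno1b changed. The number of the 35 genes called moved as follows. In Scribble null against wild type it went from 0 to 1 with median-ratio scaling, by Gapdh. In Yap1 Taz null and in triple null against wild type it went from 1 to 2 with that scaling, by Eno1. In triple null against Scribble null it went from 1 to 0 with only the groups compared, where the adjusted p of Eno1b was 0.0660, and ran from 1 to 2 with a library left out. In triple null against Yap1 Taz null it went from 1 to 0 with no filter, with the table of the whole series, with only the groups compared, and with each library left out in turn (0 to 0). The departure went from 1 to 0 with a pseudocount of 0.1, no filter, median-ratio scaling, the table of the whole series, and each library left out (0 to 0). Over all 4 genotypes the count went from 2 to 1 with a pseudocount of 0.1, no filter and the table of the whole series, and ran from 1 to 2 with a library left out, where the lost gene was Vegfa each time and the 2 were Eno1b and Hk2. The cause of these moves was not tested, except that fewer libraries or groups leave fewer degrees of freedom.

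Libraries share a number with libraries of other genotypes, but deviations of same-numbered libraries correlated at −0.0531 to 0.0257 over 16064 genes in the 6 pairs of genotypes, so the numbers were not taken to pair samples. With the replicate block the calls went from 1 to 0 in triple null against Yap1 Taz null and in the departure, and from 2 to 1 over all 4 genotypes, and no other count of calls among the 35 moved.

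With 2 libraries per genotype, the 95% interval against wild type in Scribble null ran from −0.75 to −0.21 for the abundant Gapdh and from −0.09 to 1.70 for the scarce Adm. These intervals are not adjusted for the number of genes, and neither gene was called. The abundant Hk2, at 1.06 in triple null against Scribble null, was not called either (limma adjusted p 0.0969). Changes of about 1 on the log2 scale could thus go uncalled in abundant genes as well as in scarce ones. Bhlhe40 lost its call in triple null against Scribble null with the table of the whole series (adjusted p 0.0518 in limma) and with only the groups compared (0.0973). Exons of Ankrd37 and Bnip3 overlap those of other genes by 26.4% and 22.3% of their length, and reads without strand cannot be told apart there.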
